A study of Homo sapiens with 6 samples.

Results

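AXL, its sister receptors TYRO3 and MERTK, the ligand genes GAS6 and PROS1, and the noncoding genes GAS6-AS1 and GAS6-AS2 at the GAS6 locus were followed in a comparison of 3 against 3 RNA sequencing libraries of CAL27, an established line of human tongue squamous carcinoma cells. These 7 genes were picked by symbol out of 60564 listed genes, and each of the 7 passed the filter on low counts, which left 18786 tested genes. The CNTNAP2-203 OE group carried a lentivirus with CNTNAP2-203, a transcript of CNTNAP2, and the Control group a control vector, which the sample descriptions call EGFP, with the genotype label WT. Both groups were infected and then kept in 5 μg/ml puromycin for 2 weeks, as stable populations of 1 cell line, and whether the replicates were grown as separate cultures is not stated in the labels. P-values here measure no more than library-to-library spread, part or all of which may be technical.

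The set was proposed with results of this same comparison known, so the differences of its members between CNTNAP2-203 OE and Control are descriptions and support nothing by themselves. The deposited raw counts summed to 36843190 to 42412703 in CNTNAP2-203 OE libraries and 38769375 to 41754789 in Control libraries. CNTNAP2-203 OE replicate 3 stood somewhat apart, with the lowest total, the fewest genes with a count (25336, against at most 27002 in another library) and the largest mean root mean square distance to its own group in log2(CPM + 1) over tested genes (0.457, against 0.391 and 0.397 for the other CNTNAP2-203 OE libraries and 0.33 to 0.343 for Control libraries), so values without it are given too. CNTNAP2, the introduced gene, had 140022, 156055 and 119280 counts in CNTNAP2-203 OE replicates 1, 2 and 3, against 0, 3 and 4 counts in Control replicates 1, 2 and 3. The keratin gene KRT5 averaged 6500 ± 557 CPM in CNTNAP2-203 OE and 5130 ± 496 CPM in Control (CPM are counts scaled by library total and TMM factor; SD, n = 3 each), and each of the 10 listed squamous epithelial genes was tested, with none called in edgeR's quasi-likelihood test, 2 higher and 2 lower at an unadjusted p under 0.05, 2 lower by DESeq2 (DSG3 and KRT17), KRT17 alone without CNTNAP2-203 OE replicate 3, and none by limma-voom. The pan-leukocyte gene PTPRC averaged 0.0236 CPM in CNTNAP2-203 OE and 0.0422 CPM in Control, the macrophage gene CD163 had no count, and the summed level of the 10 leukocyte and macrophage genes was 57.4 to 66.2 CPM in CNTNAP2-203 OE and 53.2 to 72.9 CPM in Control, most of it CD68 and CD14. The 9 fibroblast genes summed to 40.2 to 43.0 CPM in CNTNAP2-203 OE and 41.1 to 46.1 CPM in Control, and the 8 endothelial genes to 8 to 11.7 CPM in CNTNAP2-203 OE and 6.31 to 9.78 CPM in Control. Only 5 of the leukocyte and macrophage genes, 4 of the fibroblast genes and 2 of the endothelial genes were tested. None of these tested genes was called by edgeR, DESeq2 or limma-voom, and none had an unadjusted p under 0.05 in edgeR.

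The TAM receptors, named from the initials of TYRO3, AXL and MERTK, are receptor tyrosine kinases with immunoglobulin-like and fibronectin type III domains outside the cell. Their ligands GAS6 and protein S, the product of PROS1, carry a domain of vitamin K-dependent γ-carboxylated glutamates that binds phosphatidylserine on dying cells and membrane particles. GAS6 can activate each TAM receptor and protein S activates TYRO3 and MERTK. In carcinoma cells AXL is best known for its part in invasion and in resistance to inhibitors of EGFR, and in macrophages MERTK is known for the uptake of dying cells.

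Promoter windows of RefSeq (GRCh38.p14, 250 bases before to 50 after an annotated start) were found for 6 of the 7 genes, in 8 windows. The windows of AXL, TYRO3 and GAS6 are shown because they are those of the receptor with the highest level, of its nearest sister by level and of the ligand that shares a start region with GAS6-AS2. Capitals mark GC boxes, the letters GGGCGG or, on the other strand, CCGCCC, and each window is read 5′ to 3′ on the strand of its gene.
AXL, chr19:41218973-41219272, plus strand: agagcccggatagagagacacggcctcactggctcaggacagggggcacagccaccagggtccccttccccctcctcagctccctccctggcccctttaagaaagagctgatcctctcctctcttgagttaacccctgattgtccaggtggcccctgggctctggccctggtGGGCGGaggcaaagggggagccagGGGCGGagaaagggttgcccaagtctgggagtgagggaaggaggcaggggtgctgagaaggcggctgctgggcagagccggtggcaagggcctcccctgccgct
TYRO3, chr15:41558962-41559261, plus strand: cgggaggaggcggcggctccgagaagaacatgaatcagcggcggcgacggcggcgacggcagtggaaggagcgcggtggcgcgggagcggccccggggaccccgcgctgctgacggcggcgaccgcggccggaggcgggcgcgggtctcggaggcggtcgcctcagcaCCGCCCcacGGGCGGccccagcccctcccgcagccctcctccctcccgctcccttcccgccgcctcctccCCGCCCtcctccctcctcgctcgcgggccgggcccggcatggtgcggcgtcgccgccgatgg
GAS6, chr13:113864027-113864326, minus strand: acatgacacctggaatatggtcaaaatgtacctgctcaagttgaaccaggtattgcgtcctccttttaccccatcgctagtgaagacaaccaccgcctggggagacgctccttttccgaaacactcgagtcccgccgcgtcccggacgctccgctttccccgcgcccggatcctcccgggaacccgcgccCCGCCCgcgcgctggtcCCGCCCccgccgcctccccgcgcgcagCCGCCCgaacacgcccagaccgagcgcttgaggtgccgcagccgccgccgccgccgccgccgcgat
The AXL window held 2 GC boxes and 7 CpG dinucleotides at a GC content of 66.0%. The TYRO3 window held 3 GC boxes and 49 CpG dinucleotides at 80.3% GC, and the GAS6 window 3 GC boxes and 42 CpG dinucleotides at 69.0% GC. A further TYRO3 window (chr15:41559722-41560021) had no GC box and 10 CpG dinucleotides at 58.3% GC. A further AXL window, at a downstream start (chr19:41226505-41226804), had no GC box, and that of MERTK had 5 and that of PROS1 2. A GC box was present in 45% of all 35116 windows of this length, whose median was 14 CpG dinucleotides and 58.7% GC. The letters of an AP-1 site (TGACTCA or TGAGTCA), present in 4.9% of all windows, and of a TATA box (TATAAA or TTTATA), present in 11.5%, were in none of the 8 windows. A TEAD site (GGAATG or CATTCC, in 14% of all windows) and 2 matches to the hypoxia response core (ACGTG or CACGT, in 21.4% of all windows) were found in the downstream AXL window alone among the 8.

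AXL was the receptor with the higher level in CNTNAP2-203 OE. AXL (ENSG00000167601; GENCODE 29, GRCh38, 19:41219203-41261766, plus strand) had 3437, 3742 and 2929 counts in CNTNAP2-203 OE replicates 1, 2 and 3, against 2134, 1958 and 1828 counts in Control replicates 1, 2 and 3. After scaling this was 81.2, 90.6 and 83.7 CPM in CNTNAP2-203 OE, against 53.8, 49.6 and 43.3 CPM in Control. Every CNTNAP2-203 OE library lay above every Control library, and the gap between the groups was wider than the range within either. The means were 85.2 ± 4.88 CPM in CNTNAP2-203 OE and 48.9 ± 5.30 CPM in Control (SD, n = 3 each), a ratio of 1.74 and a fitted log2 fold change of 0.80 (SE 0.112). In these bulk libraries, more cells with AXL RNA and more AXL RNA per cell cannot be told apart. An antisense gene that overlaps AXL, AC011510.1, had at most 4 counts in any library.

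At an adjusted p under 0.05 in edgeR's quasi-likelihood test, 1 of the 7 members, AXL, was among the called genes, which made up 1.39% of all tested genes (0.798% higher and 0.596% lower). Since the members were chosen with this comparison in view, nothing is read from that count. For the counts given further on, the share of all genes was 9.41% higher and 7.84% lower at an unadjusted p under 0.05 in edgeR, 4.4% higher and 3.22% lower in DESeq2 (of 14763 genes with an adjusted p), 0.703% higher and 0.538% lower in limma-voom, and 1.72% higher and 1.26% lower in edgeR without CNTNAP2-203 OE replicate 3. Of the 6 fits that each leave out 1 library, only that without CNTNAP2-203 OE replicate 3 still called AXL (edgeR adjusted p = 0.0192). The edgeR adjusted p was 0.0874 when CNTNAP2-203 OE replicate 1 was removed, 0.0681 for replicate 2, and 0.0832, 0.134 and 0.129 when Control replicates 1, 2 and 3 were removed. Over these 6 fits the log2 fold change of AXL was 0.72 to 0.87. Without CNTNAP2-203 OE replicate 3 the log2 fold changes were 0.81 for AXL, 0.16 for TYRO3, 0.26 for MERTK, 0.39 for GAS6, -0.07 for PROS1, 0.36 for GAS6-AS1 and 1.5 for GAS6-AS2.

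TYRO3 and MERTK had overlapping groups. TYRO3 (ENSG00000092445; 15:41557675-41583586, plus strand), the TAM receptor best known from the nervous system, was at 21.8, 23.2 and 19.9 CPM in CNTNAP2-203 OE replicates 1, 2 and 3, against 19.1, 20.7 and 20.4 CPM in Control replicates 1, 2 and 3. Its log2 fold change was 0.11 (SE 0.116). MERTK (ENSG00000153208; 2:111898479-112029561, plus strand) was at 2.27, 2.15 and 1.6 CPM in CNTNAP2-203 OE, against 1.54, 2.13 and 1.87 CPM in Control, with a log2 fold change of 0.12 (SE 0.240). The lowest values of MERTK were in CNTNAP2-203 OE replicate 3 and Control replicate 1, and no group stood apart. MERTK rested on 56 to 96 counts in CNTNAP2-203 OE libraries and 61 to 84 counts in Control libraries, where counting alone gives a coefficient of variation of 11.2% in CNTNAP2-203 OE and 11.6% in Control, against observed values of 17.8% in CNTNAP2-203 OE and 16% in Control. For AXL counting gives 1.72% in CNTNAP2-203 OE and 2.25% in Control, while the observed values were 5.73% in CNTNAP2-203 OE and 10.8% in Control. The pseudogene TYRO3P had 0 to 5 counts in CNTNAP2-203 OE libraries and 0 to 7 in Control libraries, so few reads were assigned to that copy.

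**Figure D1:**
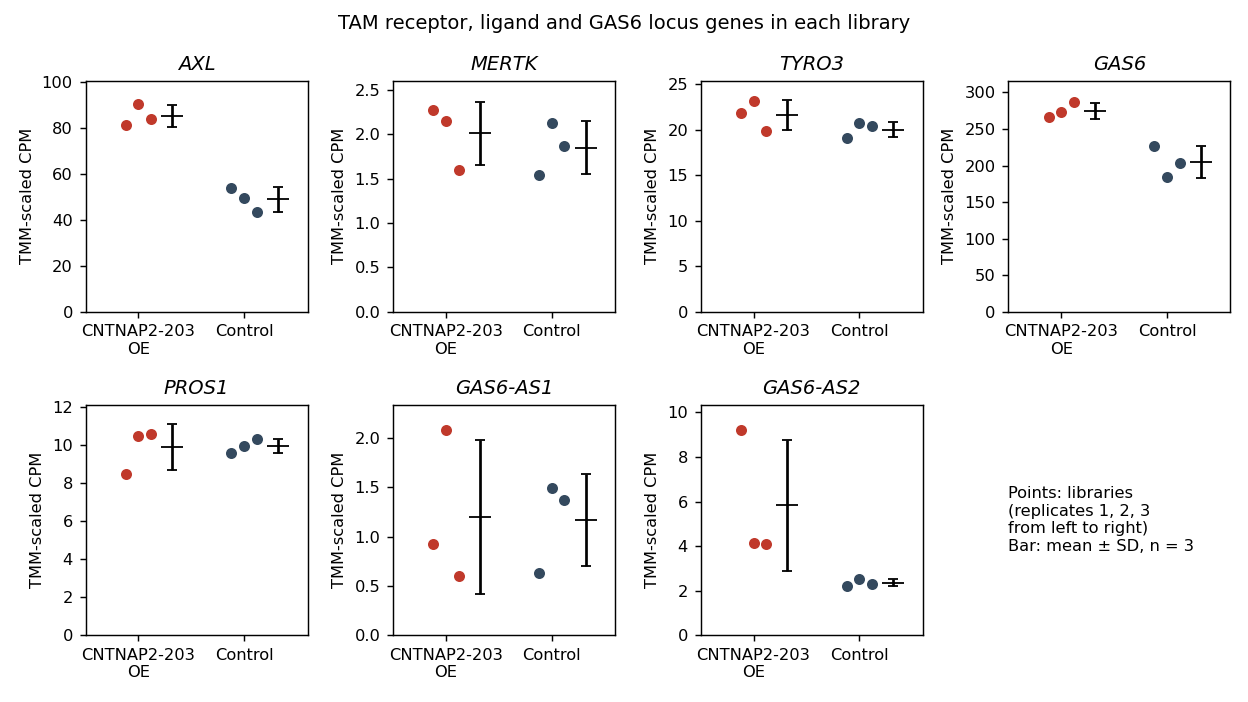
TMM-scaled CPM of the 7 genes in each library, with 1 panel per gene, CNTNAP2-203 OE at the left and Control at the right; points are libraries and the bar gives the mean ± SD (n = 3). The groups lie apart for AXL, GAS6 and GAS6-AS2, with CNTNAP2-203 OE replicate 1 far above the other libraries for GAS6-AS2, and overlap for MERTK, TYRO3, PROS1 and GAS6-AS1.

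Of the ligand genes, GAS6 was higher in each CNTNAP2-203 OE library than in any Control library, and the groups of PROS1 overlapped. GAS6 (ENSG00000183087; 13:113820549-113864067, minus strand), the ligand shared by the TAM receptors, had 11271, 11274 and 10051 counts in CNTNAP2-203 OE replicates 1, 2 and 3, against 9012, 7276 and 8603 counts in Control replicates 1, 2 and 3. Scaled, the values were 266, 273 and 287 CPM in CNTNAP2-203 OE, against 227, 184 and 204 CPM in Control. The groups did not overlap, and the lowest CNTNAP2-203 OE library was nearer to Control replicate 1 than Control replicate 1 was to Control replicate 2. The means were 275 ± 10.8 CPM in CNTNAP2-203 OE and 205 ± 21.5 CPM in Control, a ratio of 1.34 and a log2 fold change of 0.43 (SE 0.106), with 0.35 to 0.51 when any 1 library was left out. PROS1 (ENSG00000184500; 3:93873033-93980003, minus strand), which encodes protein S and is also known as an anticoagulant cofactor of activated protein C, was at 8.50, 10.5 and 10.6 CPM in CNTNAP2-203 OE, against 9.58, 9.93 and 10.3 CPM in Control. Its log2 fold change was -0.01 (SE 0.142), and its lowest and its highest library were both CNTNAP2-203 OE libraries. No read was assigned to the PROS1 pseudogene PROS2P.

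Of the noncoding genes at the GAS6 locus, GAS6-AS2 was higher in each CNTNAP2-203 OE library than in any Control library, and the groups of GAS6-AS1 overlapped. GAS6-AS2 (ENSG00000272695, named GAS6-DT in GENCODE 29 and RefSeq; 13:113864168-113866833, plus strand) starts 101 bases from the GAS6 start and runs away from it, so it shares no base with GAS6, and 200 bases of the 300-base promoter windows of both genes are the same. It had 391, 171 and 144 counts in CNTNAP2-203 OE replicates 1, 2 and 3, against 88, 100 and 98 counts in Control replicates 1, 2 and 3, or 9.23, 4.14 and 4.12 CPM in CNTNAP2-203 OE, against 2.22, 2.53 and 2.32 CPM in Control. Each CNTNAP2-203 OE library lay above each Control library, and CNTNAP2-203 OE replicate 1 stood far above the other libraries. The log2 fold change was 1.31 (SE 0.333) with all libraries and 0.81 without CNTNAP2-203 OE replicate 1. Relative to GAS6, the counts of GAS6-AS2 were 3.47%, 1.52% and 1.43% in CNTNAP2-203 OE and 0.976%, 1.37% and 1.14% in Control. In CNTNAP2-203 OE replicate 1, GAS6 itself was slightly the lowest of its group in CPM (266, against 273 and 287 CPM in replicates 2 and 3), though not in counts.

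GAS6-AS1 (ENSG00000233695; 13:113815630-113845744, plus strand) overlaps the 3′ part of GAS6 on the opposite strand and shares 421 exonic bases with it and 62 with TMEM255B. It had 39, 86 and 21 counts in CNTNAP2-203 OE replicates 1, 2 and 3, against 25, 59 and 58 counts in Control replicates 1, 2 and 3. The groups overlapped, and libraries of either group were among the low and the high ones. The log2 fold change was 0.05 (SE 0.509) and its sign depended on the library left out, with -0.61 without CNTNAP2-203 OE replicate 2, -0.25 without Control replicate 1 and 0.36 without CNTNAP2-203 OE replicate 3. Since the library kit does not mark strand, reads of GAS6-AS1 and GAS6 in shared exons cannot be told apart. The 2 genes overlap over 25196 bases, and any unspliced GAS6 reads in GAS6-AS1 exons there cannot be told apart from GAS6-AS1 either. Of the 7 members, 3 had groups that did not overlap, which was so for 26.5% of all tested genes (13.7% higher and 12.8% lower). The plot of fold changes with each library left out shows how far 1 library moves each gene.

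**Figure D2:**
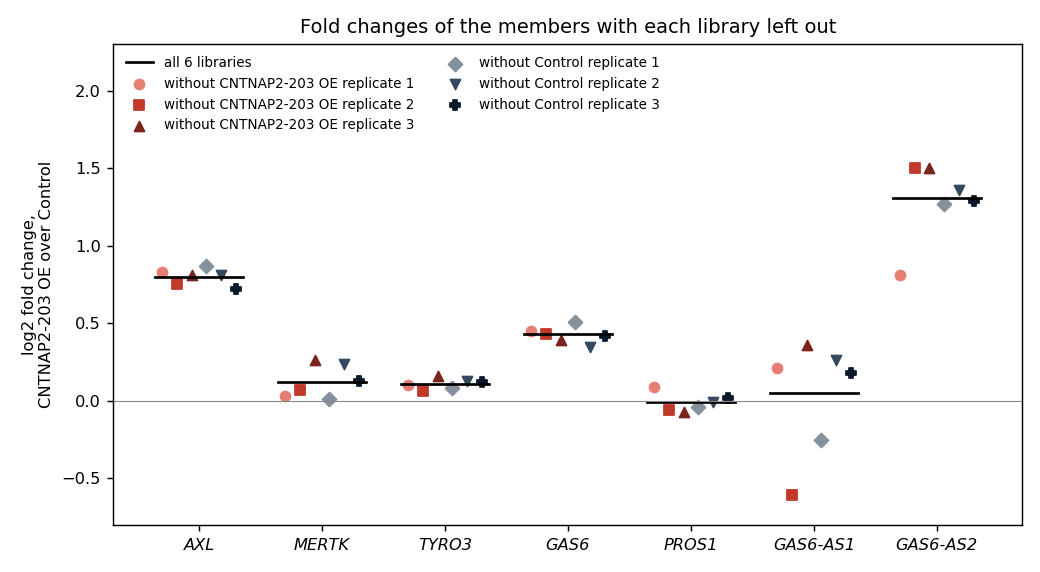
Log2 fold changes of the 7 genes, CNTNAP2-203 OE over Control, with all 6 libraries (black line) and with each library left out in turn (symbols). AXL stays at 0.72 to 0.87 and GAS6 at 0.35 to 0.51, GAS6-AS2 drops to 0.81 without CNTNAP2-203 OE replicate 1, and GAS6-AS1 takes both signs.

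Levels of different genes were set side by side as FPKM, which corrects counts for gene length and library total, from the deposited log2 values. GAS6 was the highest at 36.9 ± 0.684 FPKM in CNTNAP2-203 OE and 28.3 ± 2.88 FPKM in Control (SD, n = 3 each), and AXL followed at 13.4 ± 1.05 FPKM in CNTNAP2-203 OE and 7.90 ± 0.869 FPKM in Control. TYRO3 was at 1.61 ± 0.177 FPKM in CNTNAP2-203 OE and 1.53 ± 0.0692 FPKM in Control, and PROS1 at 1.45 ± 0.167 FPKM in CNTNAP2-203 OE and 1.51 ± 0.0574 FPKM in Control. These neighbours in the order did not differ beyond their spread, and with the length of the longest coding transcript PROS1 came above TYRO3. MERTK was lower, at 0.352 ± 0.0712 FPKM in CNTNAP2-203 OE and 0.326 ± 0.0549 FPKM in Control. GAS6-AS2 was at 2.33 ± 1.22 FPKM in CNTNAP2-203 OE and 0.956 ± 0.0743 FPKM in Control, with 3.74, 1.69 and 1.57 FPKM in CNTNAP2-203 OE replicates 1, 2 and 3. GAS6-AS1 was at 0.135 ± 0.0916 FPKM in CNTNAP2-203 OE and 0.132 ± 0.0540 FPKM in Control.

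**Figure D3:**
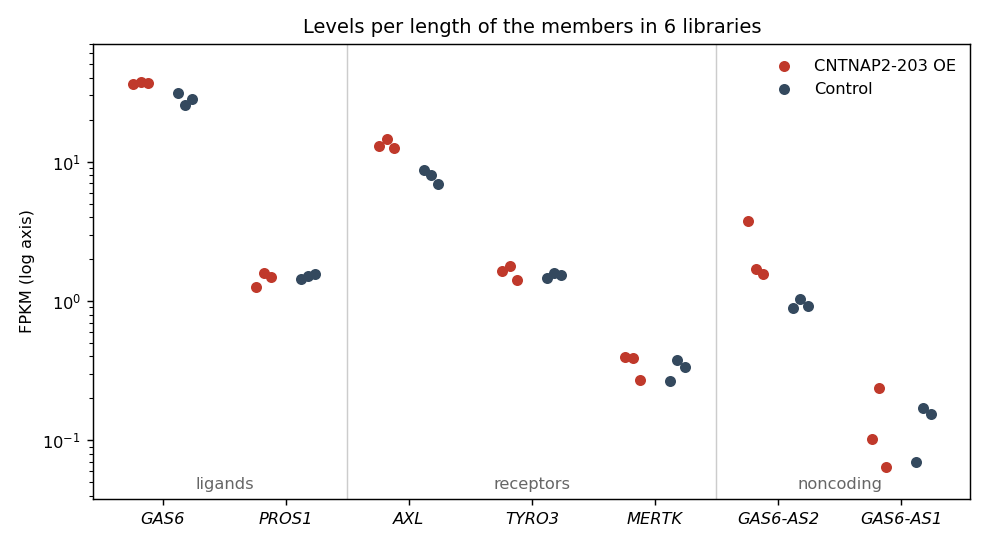
FPKM of the 7 genes (log axis) in each library, ligands at the left, receptors in the middle and noncoding genes at the right, with CNTNAP2-203 OE left of Control for each gene. GAS6 at 25.6 to 37.5 FPKM and AXL at 6.96 to 14.6 FPKM lie above PROS1, TYRO3 and MERTK in each library.

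AXL made up most of the TAM receptor RNA per length in either group. Its share of the summed FPKM of AXL, TYRO3 and MERTK was 86.3%, 87.1% and 88.2% in CNTNAP2-203 OE replicates 1, 2 and 3, against 83.4%, 80.4% and 78.7% in Control replicates 1, 2 and 3. TYRO3 made up 11%, 10.6% and 9.91% in CNTNAP2-203 OE, against 14%, 15.9% and 17.6% in Control, while its own level overlapped between the groups. The ratio of AXL to TYRO3 averaged 8.33 ± 0.531 in CNTNAP2-203 OE and 5.17 ± 0.746 in Control (SD, n = 3 each), with no overlap. The ratio of AXL to MERTK averaged 39.0 ± 7.25 in CNTNAP2-203 OE and 24.9 ± 6.62 in Control, and there the groups overlapped. The share of MERTK, 2.29 ± 0.391% in CNTNAP2-203 OE and 3.37 ± 0.693% in Control, overlapped too. The size of either ratio, like the shares, depends on the length used. TMM-scaled CPM over the longest coding transcript gave means of 18 for AXL and 2.63 for TYRO3 in CNTNAP2-203 OE, against 10.3 and 2.44 in Control. The summed TAM receptor level was 15.3 ± 1.25 FPKM in CNTNAP2-203 OE and 9.75 ± 0.805 FPKM in Control. Among the ligands, GAS6 made up 96.6%, 95.9% and 96.1% of the summed FPKM in CNTNAP2-203 OE, against 95.6%, 94.4% and 94.7% in Control. The ratio of GAS6 to AXL was 2.80, 2.57 and 2.93 in CNTNAP2-203 OE, against 3.61, 3.17 and 4.02 in Control, with no overlap. The size of this ratio depended on the length used: with the longest coding transcript it was 6.23, 5.73 and 6.52 in CNTNAP2-203 OE, against 8.03, 7.06 and 8.96 in Control.

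Among receptor tyrosine kinases, whose list was drawn up with earlier results of these data known, AXL stood higher in the order of levels in CNTNAP2-203 OE than in Control. By mean FPKM it was number 5 of 58 in CNTNAP2-203 OE and number 10 of 58 in Control. Its neighbours were MET at 34.8 ± 5.78 FPKM and FGFR3 at 12.5 ± 4.86 FPKM in CNTNAP2-203 OE, and EPHA1 at 10.2 ± 0.313 FPKM and ERBB2 at 6.67 ± 0.416 FPKM in Control (SD, n = 3). In CNTNAP2-203 OE, FGFR3 and PTK7 (12.1 ± 2.83 FPKM) did not differ from AXL beyond their spread, and EPHB4 was close at 11.7 ± 0.573 FPKM. In Control, PTK7 at 15.9 ± 1.61 FPKM and FGFR3 at 15.6 ± 0.446 FPKM lay above AXL. The order was not redone with another gene length or without CNTNAP2-203 OE replicate 3, and the places in CNTNAP2-203 OE may depend on that library. FGFR3 was at 78.1, 100 and 46.4 CPM in CNTNAP2-203 OE replicates 1, 2 and 3. PTK7 was at 130, 164 and 110 CPM in the same libraries, and EPHB4 at 93, 96 and 92.8 CPM. TYRO3 was number 21 in CNTNAP2-203 OE and number 21 in Control, and MERTK number 25 in CNTNAP2-203 OE and number 27 in Control. EGFR, the receptor that the series title names, had the highest level, at 89.2 ± 21.2 FPKM in CNTNAP2-203 OE and 124 ± 17.1 FPKM in Control. AXL had the largest positive log2 fold change of the 38 tested kinases. DDR2, a collagen receptor, had a negative one of greater size, -0.90, with a level of 0.0144 FPKM in CNTNAP2-203 OE and 0.0265 FPKM in Control. The next positive one was ROS1 at 0.76, with a level of 0.0346 FPKM in CNTNAP2-203 OE and 0.0195 FPKM in Control.

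Of the 55 kinases other than the TAM receptors 35 were tested, and edgeR's quasi-likelihood test called none. At an unadjusted p under 0.05, 2 were higher and 4 lower, DESeq2 called NTRK2 higher, as did edgeR without CNTNAP2-203 OE replicate 3 (adjusted p = 0.0335), and limma-voom called none. Their median log2 fold change was -0.03, with 16 positive and 19 negative values, beside a median of 0.00 over all tested genes. The smallest p-values were those of the neurotrophin receptor gene NTRK2 at 25.7 ± 3.52 CPM in CNTNAP2-203 OE and 18 ± 1.31 CPM in Control (edgeR adjusted p = 0.125), FGFR4 at 12.8 ± 1.43 CPM in CNTNAP2-203 OE and 9.65 ± 0.463 CPM in Control (edgeR adjusted p = 0.192), and ERBB2 at 69.8 ± 3.58 CPM in CNTNAP2-203 OE and 83.0 ± 5.45 CPM in Control (edgeR adjusted p = 0.242).

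**Figure D4:**
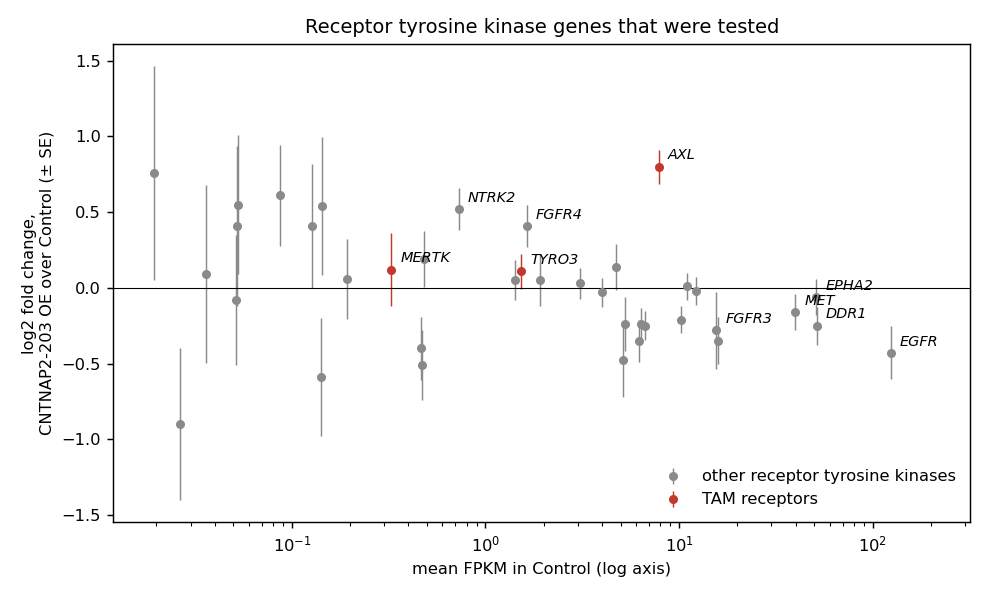
Log2 fold change (CNTNAP2-203 OE over Control, ± SE) of the 38 tested receptor tyrosine kinase genes against their mean FPKM in Control (log axis), with the TAM receptors in red. AXL lies at 0.80 with a small error, TYRO3 and MERTK lie near 0, and the wide errors belong to kinases of low level.

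Genes of the vitamin K cycle, which makes the ligands active, were expressed in both groups. GGCX, the γ-glutamyl carboxylase that modifies the vitamin K-dependent proteins, was at 57.4 ± 1.31 CPM in CNTNAP2-203 OE and 55.2 ± 2.89 CPM in Control. Of 21 genes of the vitamin K cycle, other proteins with this modification and binding partners of protein S and protein C, 13 were tested and none was called by edgeR or limma-voom, while THBD was lower by DESeq2. At an unadjusted p under 0.05, 1 was lower. The median log2 fold change was 0.06. The smallest p belonged to THBD, which encodes the endothelial anticoagulant receptor thrombomodulin and was at 95.4 ± 7.93 CPM in CNTNAP2-203 OE and 125 ± 6.32 CPM in Control (log2 fold change -0.39, edgeR adjusted p = 0.112), followed by the quinone reductase gene NQO1 (0.19, edgeR adjusted p = 0.436) and PROZ, which encodes protein Z (-0.54, edgeR adjusted p = 0.464).

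The list of 28 genes that act with or on TAM receptors, all tested, holds adaptors, the shedding enzymes ADAM10 and ADAM17 and ubiquitin ligases. Of these 7 had a positive and 21 a negative log2 fold change, with a median of -0.10. EdgeR and limma-voom called none, DESeq2 called ADAM17 lower, and 5 were lower at an unadjusted p under 0.05. ADAM17, a metalloprotease that releases the outer part of several receptors, was at 80.6 ± 6.46 CPM in CNTNAP2-203 OE and 117 ± 18.1 CPM in Control (edgeR adjusted p = 0.101). The ubiquitin ligase gene CBLB was at 23.6 ± 3.62 CPM in CNTNAP2-203 OE and 30.5 ± 0.781 CPM in Control (edgeR adjusted p = 0.219), and DOCK1, an activator of the GTPase RAC1, at 66.4 ± 12.3 CPM in CNTNAP2-203 OE and 87.0 ± 5.67 CPM in Control (edgeR adjusted p = 0.231).

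Of 37 genes of phosphatidylserine exposure and uptake of dying cells, 26 were tested. EdgeR and limma-voom called none, DESeq2 called CALR higher and LRP1 lower, and at an unadjusted p under 0.05 there were 2 higher and 1 lower. The median log2 fold change was 0.02, with 13 positive and 13 negative values. CALR, whose product is an endoplasmic reticulum chaperone that also marks dying cells at their surface, was at 1290 ± 188 CPM in CNTNAP2-203 OE and 912 ± 33.7 CPM in Control (edgeR adjusted p = 0.097, and 0.0361 without CNTNAP2-203 OE replicate 3). LRP1, an uptake receptor, was at 54.5 ± 17.1 CPM in CNTNAP2-203 OE and 88.9 ± 7.65 CPM in Control (edgeR adjusted p = 0.178), and GULP1, an engulfment adaptor, at 25.6 ± 1.88 CPM in CNTNAP2-203 OE and 20.2 ± 2.58 CPM in Control (edgeR adjusted p = 0.243).

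Transcription factors and co-factors that have been linked to AXL transcription include AP-1, SP1 and the YAP and TEAD proteins. Of 29 listed, 28 were tested, 11 lay above and 17 below no difference, beside 9315 above and 9471 below over all 18786 tested genes. Their median log2 fold change was -0.12, and -0.06 without CNTNAP2-203 OE replicate 1 or replicate 3. EdgeR and limma-voom called none, DESeq2 called FOS, FOSB and FOSL2 lower, and 2 were higher and 6 lower at an unadjusted p under 0.05. The smallest p-values were those of 3 genes of AP-1 subunits. FOSL2 was at 123 ± 22.1 CPM in CNTNAP2-203 OE and 196 ± 10.3 CPM in Control (log2 fold change -0.67, edgeR adjusted p = 0.0709). FOS was at 289 ± 39.9 CPM in CNTNAP2-203 OE and 446 ± 55.0 CPM in Control (-0.63, edgeR adjusted p = 0.0776), and FOSB at 87.0 ± 30.4 CPM in CNTNAP2-203 OE and 207 ± 58.9 CPM in Control (-1.25, edgeR adjusted p = 0.131). The listed AP-1 genes did not all go this way. FOSL1, named after its values were seen, was at 54.8 ± 8.48 CPM in CNTNAP2-203 OE and 40.7 ± 2.23 CPM in Control, without overlap (0.43, edgeR adjusted p = 0.154). Without CNTNAP2-203 OE replicate 3 edgeR called FOS, FOSL2 and JUNB lower (adjusted p = 0.042, 0.0242 and 0.0426), and without the filter on low counts FOS and FOSL2, where 0.603% of 33852 genes were called higher and 0.443% lower.

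Around GAS6, 34 other listed genes lie within 500 kb and 13 of them were tested. CHAMP1, whose product works in aligning chromosomes at mitosis and which starts 450 kb beyond the GAS6 start, rose to 30.6 ± 3.20 CPM in CNTNAP2-203 OE, against 3.94 ± 0.444 CPM in Control (log2 fold change 2.96, SE 0.152, edgeR adjusted p = 0.000503). None of the other 12 was called with all libraries in edgeR, DESeq2 or limma-voom. Over all 13, 3 were higher and 1 lower at an unadjusted p under 0.05, and 6 had a positive and 7 a negative value, with a median log2 fold change of -0.04. TMEM255B, the neighbour on the 3′ side of GAS6, was at 6.09 ± 0.614 CPM in CNTNAP2-203 OE and 4.62 ± 0.491 CPM in Control (log2 fold change 0.40). TFDP1, the gene of the E2F partner DP1, was at 174 ± 15.1 CPM in CNTNAP2-203 OE and 140 ± 2.95 CPM in Control (0.31), and was called higher without CNTNAP2-203 OE replicate 3 (0.38, edgeR adjusted p = 0.0377). GRTP1, at the far 3′ side, was at 12 ± 0.966 CPM in CNTNAP2-203 OE and 15.8 ± 0.667 CPM in Control (-0.40). Between GAS6-AS2 and CHAMP1, LINC00565 and UPF3A had positive values and FP565324.1, RASA3 and CDC16 negative ones, none called.

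**Figure D5:**
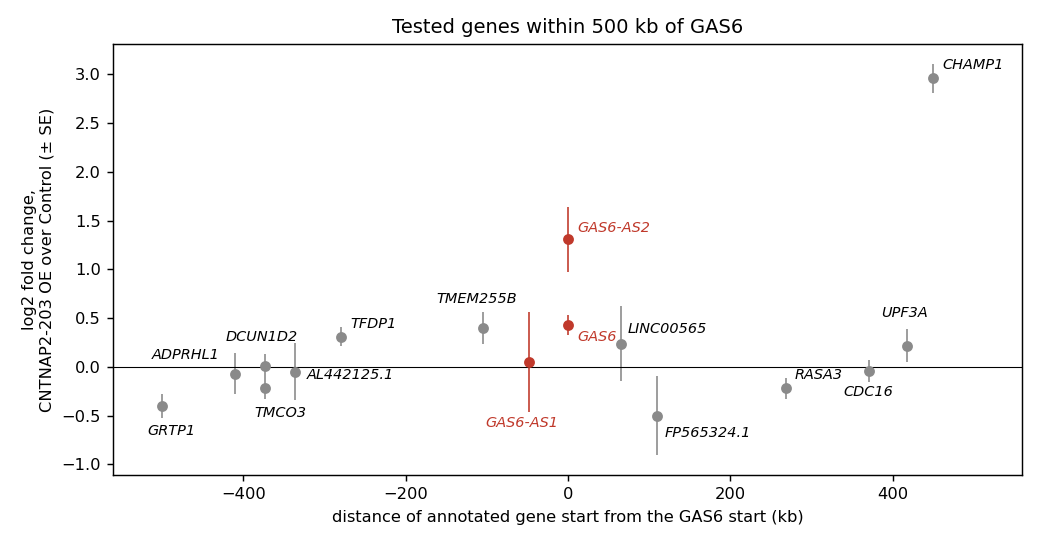
Log2 fold change (CNTNAP2-203 OE over Control, ± SE) of tested genes within 500 kb of GAS6 against the distance of their annotated start from that of GAS6, with GAS6, GAS6-AS1 and GAS6-AS2 in red. CHAMP1 at 2.96 lies far above the other genes, GAS6-AS2 is at 1.31 and GAS6 at 0.43, and the genes between GAS6-AS2 and CHAMP1 lie on both sides of 0.

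The genes nearest to AXL by profile were found from the root mean square difference between log2 CPM values centred on their mean over the 6 libraries. Of 12473 genes compared, whose median difference from AXL was 0.448, 15 differed by less than 0.1. The nearest 5 were SHCBP1, which encodes a protein that binds the adaptor SHC1 (0.0509), the spindle protein gene DLGAP5 (0.0586), the condensin gene NCAPG (0.0594), TRIP13, an ATPase of the spindle checkpoint (0.0684), and LMNB1, lamin B1 (0.0731). SHCBP1 averaged 55.0 ± 3.15 CPM in CNTNAP2-203 OE and 30.9 ± 1.97 CPM in Control. Since 6 libraries in 2 groups hold little information on likeness, these are genes with a similar step between the groups and a similar small spread within them. The nearest genes to GAS6 were PSMD3, GPATCH4, NOC4L, MICA and SERPINH1, at 0.0378 to 0.0482, and 196 genes differed from GAS6 by less than 0.1. For TYRO3 the nearest were CAPRIN1, MOB3B, POFUT1, LBR and GALNT6, with 874 genes under 0.1, for PROS1 RAB27A, CDIP1, DDA1, ZBTB9 and NAGK, with 328, and for MERTK TPP2, ATR, URB2, NUP153 and GPAM, with 101.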

How the data were processed

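CAL27 RNA was ribosome-depleted before TruSeq RNA v2 library preparation, a kit that keeps no strand information, per the labels' protocols. Trim Galore 0.4.4 and hg38 are named in the submitters' processing notes; aligner, counter, annotation and strand setting were not given in the sources used here, nor whether the deposited counts of Control replicate 1, whose reverse read file the labels call missing, used read pairs. Deposited were the authors' raw counts per gene and the authors' log2 values. The log2 values are of FPKM + 1: implied gene lengths had a median coefficient of variation over libraries of 0.23% with that offset and 2.61% without it. They were 1.23 times the union of GENCODE 29 exons, within 5% for 87.4% of genes.

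Counts were filtered with filterByExpr (minimum count 10), scaled by TMM and compared with edgeR 4.0.16 (robust quasi-likelihood test, group as the only term, R 4.3.3), with Benjamini-Hochberg adjustment over 18786 genes at 0.05. An SE is |log2 fold change| over the root of F. DESeq2 1.42.0, limma-voom (limma 3.58.1), RLE size factors, no filter, a replicate block and leaving out each library were alternatives. Members and gene lists were chosen with earlier results of these data known, and members' differences carry no independent test. In each list the genes past the threshold (up to 8), or with fewer than 3 of these the 3 with the smallest p, were named. Other genes outside the members and the 5 nearest by profile were named after their values were seen. They were neighbours in an order or a position, defining markers or, for FOSL1, an AP-1 gene of the other sign. Positions are from GENCODE 29 (GRCh38) and promoters from RefSeq (GRCh38.p14).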

Additional observations from a re-analysis of the deposited data

How the results depend on the processing

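Of the members, AXL, GAS6, TYRO3, MERTK and GAS6-AS2 kept a positive log2 fold change under each alternative run. The number of members called was 1 in edgeR with TMM or RLE scaling, without the filter and in limma-voom, 3 in DESeq2 (AXL, GAS6 and GAS6-AS2), 1 without CNTNAP2-203 OE replicate 3 and 0 in the other 5 fits that leave out a library. The 150 genes called higher and 112 lower over the transcriptome became 650 higher and 475 lower in DESeq2, and 8 to 323 higher and 5 to 237 lower when a library was left out; the cause was not tested. The difference of deposited log2 values gave 0.71 for GAS6-AS2, on a log2(FPKM + 1) scale that understates changes of low genes. With 1 library left out, log2 fold changes were 0.72 to 0.87 for AXL, 0.35 to 0.51 for GAS6, 0.81 to 1.5 for GAS6-AS2, 0.06 to 0.16 for TYRO3, 0.01 to 0.26 for MERTK, -0.07 to 0.09 for PROS1 and -0.61 to 0.36 for GAS6-AS1. DESeq2 called 1 other kinase higher (NTRK2), 1 gene of the vitamin K list lower (THBD), 1 of TAM receptor signalling lower (ADAM17), 1 of phosphatidylserine exposure and uptake higher (CALR) and 1 lower (LRP1), and 3 factors linked to AXL transcription lower; without the filter on low counts edgeR called 2 of those factors lower, FOS and FOSL2. With a library left out, 0 to 1 kinase and 0 to 1 uptake gene were called higher, 0 to 3 of the transcription factors lower, and 1 to 2 genes near GAS6 higher; the upper ends come from the fit without CNTNAP2-203 OE replicate 3. List medians were -0.10 to -0.01 for the kinases, -0.10 to 0.07 for the vitamin K list, -0.12 to -0.09 for TAM receptor signalling, -0.05 to 0.06 for uptake, -0.17 to -0.06 for the transcription factors and -0.06 to 0.08 near GAS6. Levels per length depended on the length and the scaling used. Lengths implied by the deposited FPKM had a median of 1.23 times the GENCODE 29 union exon length, within 5% for 87.4% of genes. Values over the union exon length thus differ from FPKM mainly by a near-common factor, whose source was not tested. TMM-scaled CPM over the GENCODE 29 union exon length gave, in CNTNAP2-203 OE, 16.5 for AXL, 45.9 for GAS6, 1.97 for TYRO3, 1.82 for PROS1 and 0.427 for MERTK. In Control it gave 9.49 for AXL, 34.1 for GAS6, 1.83 for TYRO3, 1.83 for PROS1, 0.393 for MERTK and 1.21 for GAS6-AS2. Over the longest coding transcript, an alternative chosen after seeing the data, the CNTNAP2-203 OE values were 18 for AXL, 111 for GAS6, 2.63 for TYRO3, 2.76 for PROS1 and 0.508 for MERTK. The Control values were 10.3 for AXL, 82.3 for GAS6, 2.44 for TYRO3, 2.78 for PROS1, 0.467 for MERTK and 1.21 for GAS6-AS2. GAS6 then AXL stayed highest, while TYRO3 and PROS1 changed places. No pairing of the libraries by replicate number was seen over the tested genes as a whole. Deviations from the group means of same-numbered libraries correlated at -0.082, 0.045 and -0.028, and libraries did not each correlate best with their own number. Such a check cannot exclude a pairing that few genes follow, and VKORC1L1, described below, did follow replicate number in both groups. With a replicate block 11 genes were called higher and 6 lower, and no member was called. Depth limits MERTK and GAS6-AS1 most, whose lowest libraries had 56 and 21 counts.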

Other observations

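VKORC1L1, which encodes a vitamin K epoxide reductase, was named after its values were seen. It was at 15.2, 16.8 and 48.9 CPM in CNTNAP2-203 OE replicates 1, 2 and 3, against 14.2, 15.9 and 46.8 CPM in Control replicates 1, 2 and 3, so replicate 3 was far above the other libraries in either group. Its relative VKORC1, the epoxide reductase of the liver and the target of warfarin, was at 9.38, 9.34 and 11.9 CPM in CNTNAP2-203 OE, against 11.9, 6.89 and 7.64 CPM in Control, without that pattern. Neither gene was called (edgeR adjusted p = 0.97 for VKORC1L1 and 0.676 for VKORC1).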
